A study of Mus musculus with 9 samples.

Results

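Hnf4a, Pax2, Pax8, Sox9, Sox4 and Tfcp2l1 encode transcription factors that set or mark the identity of kidney tubule cells or appear in tubule cells during repair. They were chosen by name, as the 6 rows of the deposited gene table that carry these symbols. The rule used no measured value, but earlier results of these data were known when it was set. They are 6 of 34310 genes in the table and 6 of the 15015 that passed a filter on low expression, and every one of them passed. Kidney RNA came from 9 mice in 3 groups of 3. One group received saline, one received lipopolysaccharide (LPS, a cell wall component of Gram-negative bacteria that activates innate immunity), and one received LPS and thymosin β4 (Tβ4), an actin-sequestering peptide. There was 1 mouse per library, and the labels state no strain, sex, age, dose, route or time after injection, and no genetic modification for any group. The tissue was whole kidney, so fewer cells of a type and less RNA per cell cannot be told apart in any value below.

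Tubule cells keep their identity through sets of transcription factors that bind DNA at genes for transporters, receptors and enzymes of each nephron segment. Hnf4a, a nuclear receptor family member, drives the maturation of the proximal tubule, the segment that reabsorbs most filtered solute. Pax2 and Pax8 are paired-box factors that establish the nephric lineage in the embryo, and Pax8 persists in adult tubule epithelium while Pax2 is mostly kept in the collecting duct. Sox9 is nearly silent in most adult proximal tubule cells and is switched on in injured cells that go on to proliferate, and Sox4 is a related factor of the developing nephron. Tfcp2l1, of the CP2 family, controls the patterning of intercalated and principal cells in the collecting duct.

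The promoters of the genes that moved most clearly are shown here because Hnf4a is transcribed from alternative promoters and because Pax8 and Sox4 moved in the opposite direction to it. RefSeq promoter windows on GRCm38.p6, from 250 bases before to 50 bases after each start site, were found for 5 of the 6 genes, and none for Sox9. Hnf4a has 2 windows, Pax2 has 3, and Pax8, Sox4 and Tfcp2l1 have 1 each. Hnf4a is known for a distal promoter, P2, that lies upstream of a proximal one, P1. The RefSeq windows carry no such names, but the first lies upstream of the second, which is the order of P2 and P1. The stretch before the first Hnf4a start site is chr2:163506607-163506807 (plus strand), and it lies within the body of Hnf4aos, a gene on the opposite strand. That before the second is chr2:163546905-163547154 (plus strand) and lies inside the gene as the deposited table gives it, that of Pax8 is chr2:24475600-24475849 (minus strand) and that of Sox4 is chr13:28953714-28953949 (minus strand). Each is printed from the 5′ end along the strand of the gene, ends upstream of its RefSeq start site, and has in capitals the letters that match a motif searched on both strands.
Hnf4a, first start site: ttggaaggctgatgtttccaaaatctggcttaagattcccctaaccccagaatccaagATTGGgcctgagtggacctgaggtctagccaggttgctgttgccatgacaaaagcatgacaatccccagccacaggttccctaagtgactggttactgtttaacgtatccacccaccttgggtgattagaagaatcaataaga
Hnf4a, second start site: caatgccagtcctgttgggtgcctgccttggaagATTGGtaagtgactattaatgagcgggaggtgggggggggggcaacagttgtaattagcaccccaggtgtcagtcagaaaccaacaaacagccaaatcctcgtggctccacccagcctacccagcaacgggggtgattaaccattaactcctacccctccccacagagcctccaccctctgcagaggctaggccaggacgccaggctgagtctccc
Pax8: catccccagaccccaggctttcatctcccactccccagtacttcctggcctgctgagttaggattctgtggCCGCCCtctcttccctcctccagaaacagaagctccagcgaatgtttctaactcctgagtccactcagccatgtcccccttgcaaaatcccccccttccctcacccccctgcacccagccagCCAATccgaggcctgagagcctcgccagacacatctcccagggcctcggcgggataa
Sox4: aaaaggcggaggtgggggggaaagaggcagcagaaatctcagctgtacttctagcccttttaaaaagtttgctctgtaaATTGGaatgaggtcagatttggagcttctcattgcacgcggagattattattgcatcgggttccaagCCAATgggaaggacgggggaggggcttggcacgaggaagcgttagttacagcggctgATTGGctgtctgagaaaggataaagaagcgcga
The motifs searched were AP-1 (TGANTCA), STAT (TTCNNNGAA), HNF4 (CAAAGTC), SOX (ACAAAG), PAX (CGTGAC), the CCAAT box (CCAAT), the GC box (GGGCGG) and the TATA box (TATAAA). Positions are counted from the RefSeq start site, with negative numbers upstream. The Sox4 window holds 4 CCAAT matches, at -171, -104, -47 and -8, the last of them beyond the printed stretch, which ends where the gene begins in the deposited table. At least 1 CCAAT match occurs in 37.4% of the 32851 RefSeq windows of the same length and at least 4 in 1.06%. Pax8 has a CCAAT match at -57 and a GC box match at -179, Hnf4a has CCAAT matches at -192 and -216 in its first and second windows, and Tfcp2l1 has a TATAAA match at -28 (13.6% of windows). No window of the 5 genes holds these AP-1 letters, which occur in 7.81% of windows. A match is a run of letters, and binding was not measured.

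Library depth was even, from 53 to 62 M counts. Levels are given as FPKM, fragments per kilobase of transcript and per 1 M fragments, which allows genes of different length to be compared. Changes are log2 fold changes ± SE from the edgeR quasi-likelihood test on counts, with p-values adjusted over all 15015 genes and 0.05 as the threshold, and "rose" or "fell" is used of genes that passed it. Sets of libraries stood apart by markers of tissue next to or outside the nephron. The summed level of 5 urothelium markers, in counts per 1 M counts (CPM) after scaling, was 2.13, 87.0 and 74.5 in the saline libraries, 55.1, 46.2 and 0.93 in the LPS libraries and 1.03, 0.758 and 65.9 in the LPS+Tβ4 libraries, and Upk2 and Upk3a were at 0 in the lowest LPS library and the 2 lowest LPS+Tβ4 libraries. Oligodendrocyte markers (7 genes) summed to 40.9 to 50.1 CPM in saline, 22.4 to 161 in LPS and 369 to 465 in LPS+Tβ4. Schwann and neural crest markers (4 genes) followed them, at 17.1 to 23.2, 4.36 to 42.2 and 105 to 126 CPM, and Sox10 and Foxd3 were at 0 in at least 1 LPS library. Neuron markers (6 genes) summed to 145 to 179 CPM in LPS+Tβ4 and 9.08 to 35.3 in the other groups, and erythroid markers (5 genes) to 182 to 263 CPM against 536 to 707. Neutrophil markers (5 genes) summed to 0.573 to 2.35 CPM in saline, 17.9 to 38.6 in LPS and 19.8 to 56.6 in LPS+Tβ4. Proximal tubule markers were abundant in every library, and the lowest sum of the 8 was 4249 CPM, most of it from 1 marker, Kap. Marker sums of other tubule cells were lower, down to 48.2 CPM for intercalated cells (LPS replicate 1) and 68.0 CPM for principal cells (LPS replicate 3).

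Against saline, LPS raised 3 of the 6 factors (Pax8, Sox9 and Sox4), lowered 1 (Hnf4a), and left Pax2 and Tfcp2l1 without a call. Among all genes tested, 43.1% were called in this comparison, 20.9% higher and 22.2% lower, so 4 calls among 6 is close to the background. The FPKM ranges of the LPS and saline libraries were apart for those 4 genes, as they were for 51.9% of all genes. A fit chosen after the data were seen used the 5 libraries with urothelium signal alone (2 saline, 2 LPS and 1 LPS+Tβ4). With 2 residual degrees of freedom, it gave changes of -2.51 for Hnf4a, 0.87 for Pax8, 5.83 for Sox9 and 1.97 for Sox4. Since the ranges were apart, these signs could hardly have differed, and the part of urothelium in the changes was not tested. Between LPS+Tβ4 and LPS none of the 6 was called by edgeR and no FPKM ranges were apart. Of the 6, 3 had an unadjusted p under 0.05 (Hnf4a, Pax8 and Sox4) and DESeq2 called 1 (Sox4). Of all 15015 genes, 3768 had such a p and DESeq2 called 2442. By edgeR 6.83% of all genes were called, and 24.7% had ranges apart. That called share rested on the spread estimated over all 9 libraries, since the 6 libraries fitted alone gave 3 called genes in place of 1025. Against saline, LPS+Tβ4 raised 2 factors (Sox9 and Sox4), lowered 1 (Hnf4a) and had ranges apart for 4. The shares of all genes there were 24.1% called, 12.3% higher, 11.8% lower and 51.1% with ranges apart. The LPS libraries enter 2 of these comparisons and the saline libraries enter 2, so the comparisons are not independent of each other.

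**Figure D1:**
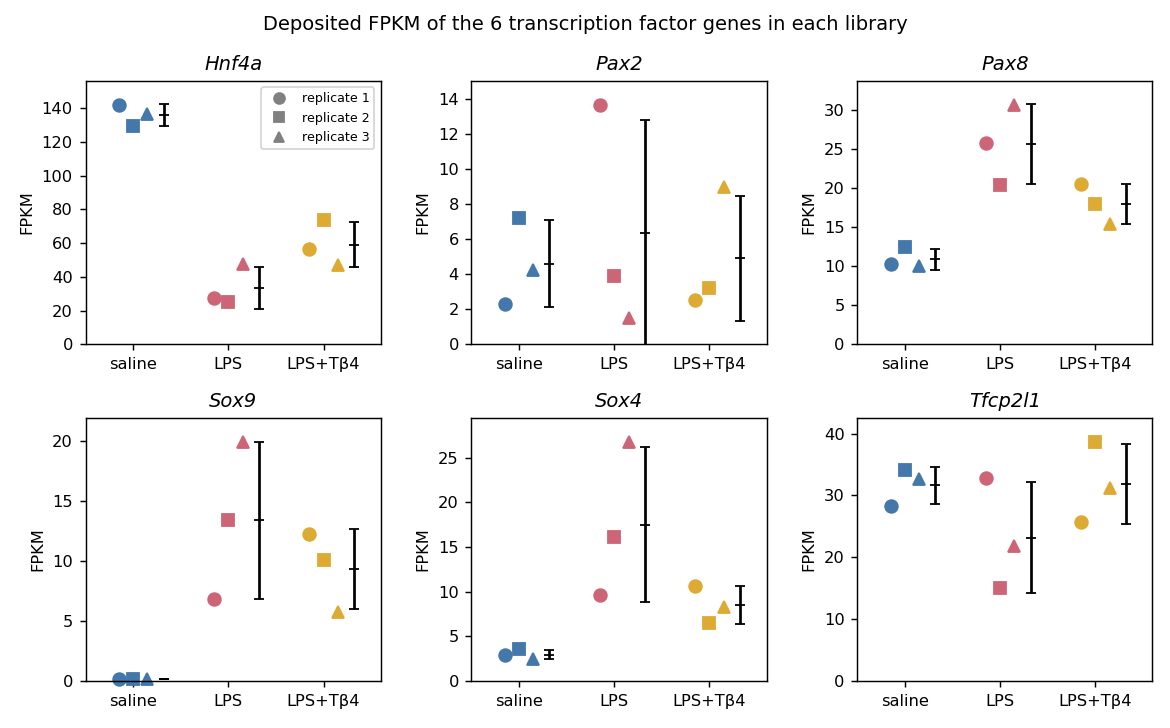
FPKM of each gene (y axis, linear, starting at 0) in the 3 libraries of each group (x axis); symbols mark replicate numbers, and the black bar is the mean ± SD (n = 3). Hnf4a lies between 129.5 and 142 in saline and between 25.1 and 73.5 in the other groups, while Sox9 lies under 0.2 in saline and between 5.71 and 19.9 in the others; the lower end of the Pax2 bar in LPS lies below 0 and is not drawn.

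Hnf4a (ENSMUSG00000017950, GRCm38 chromosome 2 at 163506808 to 163572905, plus strand) had the highest mean FPKM of the 6 in every group. In LPS replicate 1, though, Tfcp2l1 stood above it (32.8 against 27.6 FPKM). The level of Hnf4a was 142, 129.5 and 137 FPKM in the saline libraries, 27.6, 25.1 and 47.9 in the LPS libraries and 56.8, 73.5 and 47.1 in the LPS+Tβ4 libraries. Every saline library stood above every other library, and the highest LPS library, replicate 3, stood just above the lowest LPS+Tβ4 library, replicate 3, so those 2 groups overlapped. Hnf4a fell 4.45-fold with LPS, by 2.15 ± 0.34 on the log2 scale (edgeR adjusted p = 0.00143), from 136 ± 6.29 to 33.5 ± 12.5 FPKM (SD, n = 3). With Tβ4 its level was 59.1 ± 13.4 FPKM, a log2 difference from LPS of 0.75 ± 0.32 that did not pass (edgeR adjusted p = 0.19, 95% interval 0.02 to 1.49 before adjustment). It remained lower than in saline by this test, at -1.40 ± 0.33 (edgeR adjusted p = 0.0163). That last call was lost on leaving out saline replicate 1 or 3 or LPS+Tβ4 replicate 1 or 3, with differences of -1.19 to -1.41 and adjusted p of 0.052 to 0.059, while the fall with LPS was called in all 21 alternative settings. The 8 proximal tubule markers moved with it from saline to LPS. They summed to 25663, 24495 and 24811 CPM in saline, 4659, 11974 and 16914 in LPS and 11685, 10431 and 4249 in LPS+Tβ4. Most of each sum was Kap, at 14463 to 16605 CPM in saline, 4299 to 14490 in LPS and 3353 to 10704 in LPS+Tβ4. Kap thus overlapped between saline and LPS, while each other marker was lower in every LPS library than in every saline library. Lrp2, for example, stood at 1873 to 2497 CPM in saline and 129 to 294 in LPS. Within LPS, replicate 3 was highest in both Hnf4a and the marker sum. Replicate 1 had the lowest sum there and the least Hnf4a in CPM, but replicate 2 had the least in FPKM. Within LPS+Tβ4, replicate 3 was lowest in both, but replicate 2 had the most Hnf4a and replicate 1 the highest sum. The part of cell number in the Hnf4a difference was not tested.

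Hnf4aos, the antisense gene at this locus (chromosome 2 at 163493807 to 163541720, minus strand), fell as well. It had 452, 416 and 514 counts in saline, 34, 46 and 43 in LPS and 113, 141 and 52 in LPS+Tβ4. All LPS libraries lay below all LPS+Tβ4 libraries in counts, and these below all saline libraries, but after scaling LPS+Tβ4 replicate 3 (0.748 CPM) lay within the LPS range (0.523 to 0.882 CPM). The change with LPS was -3.56 ± 0.45 (edgeR adjusted p = 0.000546), and the difference between LPS+Tβ4 and LPS was 1.15 ± 0.42 (edgeR adjusted p = 0.132). Its counts equalled 0.828% of those of Hnf4a. Its gene body covers 3.73% of the Hnf4a exonic bases and its exons share 0 of them. The libraries kept strand, but the strand setting of the counting is not given in the sources used here.

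Hnf4a belongs to a fixed list of 16 proximal tubule transcription factors, of which 14 were tested. With LPS 11 of the 14 fell, 0 rose, and the median was -1.09 against 0.02 over all genes. The share that fell was 78.6%, against 22.2% of all genes. Tfec, a MiT family factor, fell by 2.89 ± 0.23 (edgeR adjusted p = 8.55e-05). Hnf4g, the paralogue of Hnf4a, fell by 2.08 ± 0.47. Cux1, a homeobox factor, fell by 0.99 ± 0.20. Rxra (0.17 ± 0.31), Nr1h4 (-0.55 ± 0.41) and Mlxipl (-0.31 ± 0.20), named after their values were seen, did not pass. In the 5 libraries with urothelium signal alone the list median was -1.32. Between LPS+Tβ4 and LPS, 1 of 14 rose (7.14%, against 6.83% of all genes called), with a list median of 0.30. This was again Tfec (1.9 ± 0.22, edgeR adjusted p = 0.00913). Against saline LPS+Tβ4 had 6 of 14 lower (42.9%, against 11.8% of all genes) and none higher, with a median of -0.87.

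Genes that carry out proximal tubule transport fell in the main as well. Of 28 such genes, 20 fell with LPS (71.4%, against 22.2% of all genes) and none rose (median -1.79). Slc2a2, the basolateral glucose transporter GLUT2, fell by 4.20 ± 0.27, and Slc47a1, an organic cation exporter, fell by 3.31 ± 0.27. The endocytic receptors Lrp2 and Cubn fell by 3.43 ± 0.36 and 3.10 ± 0.37. Between LPS+Tβ4 and LPS, 4 of 28 rose and none fell (median 0.55). Slc2a2 was the clearest, at 3.51 ± 0.26 (edgeR adjusted p = 0.00261), and the urate transporter Slc22a12 differed by 1.26 ± 0.27, a call that held in 11 of 21 alternatives. The share called in the list was 14.3% there, against 6.83% of all genes. Against saline, 13 of 28 were lower with LPS+Tβ4 (46.4%, against 11.8% of all genes).

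**Figure D2:**
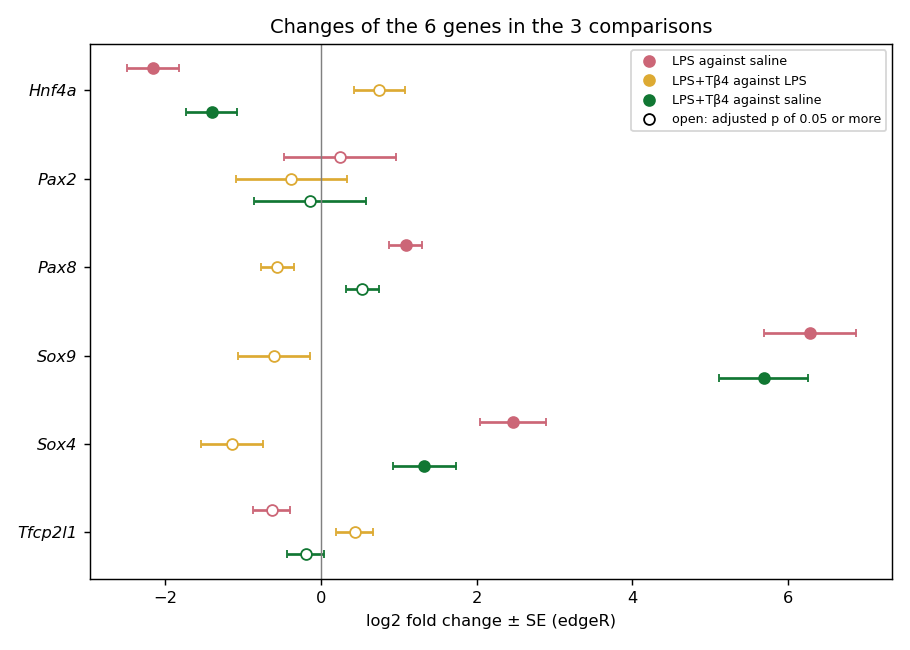
Log2 fold change (x axis) ± SE from edgeR for each gene (y axis) in the 3 comparisons, with filled points where the adjusted p was under 0.05. Sox9 lies at 6.28 and 5.69 against saline, Hnf4a lies at -2.15 and -1.40, and the 6 open points of LPS+Tβ4 against LPS lie between -1.14 and 0.75.

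Pax8 (ENSMUSG00000026976, chromosome 2 at 24420560 to 24475599, minus strand) rose with LPS. Its level was 10.2, 12.4 and 9.99 FPKM in saline, 25.7, 20.4 and 30.6 in LPS and 20.4, 18.0 and 15.4 in LPS+Tβ4. Every library of both LPS groups stood above every saline library, and the LPS groups met at 20.4 FPKM. After TMM scaling, the scale of the test, the LPS libraries (142 to 221 CPM) all lay above the LPS+Tβ4 libraries (90.6 to 140 CPM). The rise with LPS was 2.13-fold, or 1.09 ± 0.21 (edgeR adjusted p = 0.00417), and was called in all 21 alternative settings. The difference between LPS+Tβ4 and LPS was -0.56 ± 0.21 (edgeR adjusted p = 0.145), with a 95% interval of -1.04 to -0.08 before adjustment. It passed with a term for the urothelium marker sum (-0.67, adjusted p = 0.045), and it was -0.33 without LPS replicate 3 (adjusted p = 0.31). LPS+Tβ4 against saline stood at 0.53 ± 0.21 (edgeR adjusted p = 0.106), and this passed on leaving out LPS replicate 3 (0.53, adjusted p = 0.049). An antisense gene, Gm13415, spans 73.5% of the exonic bases of Pax8 and shares 367 of them with its own exons, and its counts equalled 0.736% of those of Pax8.

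Pax2 (ENSMUSG00000004231, chromosome 19 at 44756045 to 44837871, plus strand) showed no change that could be told from the spread. Its level was 2.30, 7.24 and 4.26 FPKM in saline, 13.7, 3.92 and 1.52 in LPS and 2.52, 3.20 and 8.99 in LPS+Tβ4. The highest and the lowest library of all 9 were both in the LPS group, and the 3 groups overlapped fully. The log2 differences were 0.24 ± 0.72 for LPS against saline (95% interval -1.39 to 1.88), -0.38 ± 0.72 for LPS+Tβ4 against LPS (-2.01 to 1.26) and -0.13 ± 0.72 for LPS+Tβ4 against saline (-1.77 to 1.50), with edgeR adjusted p of 0.809, 0.793 and 0.916. Differences of either sign and of up to more than 1 log2 unit lie within those intervals. Without LPS replicate 1 the first became -0.76 (adjusted p = 0.36) and the second 0.68 (adjusted p = 0.51). The library highest in Pax2 in each group was also the one with the highest urothelium sum. The 5 principal cell markers of the collecting duct summed to 191, 445 and 222 CPM in saline, 371, 197 and 68.0 in LPS and 270, 241 and 252 in LPS+Tβ4. That sum was highest in the library with the most Pax2 in the saline and LPS groups and not in LPS+Tβ4. The part of sampled region in the Pax2 values was not tested.

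**Figure D3:**
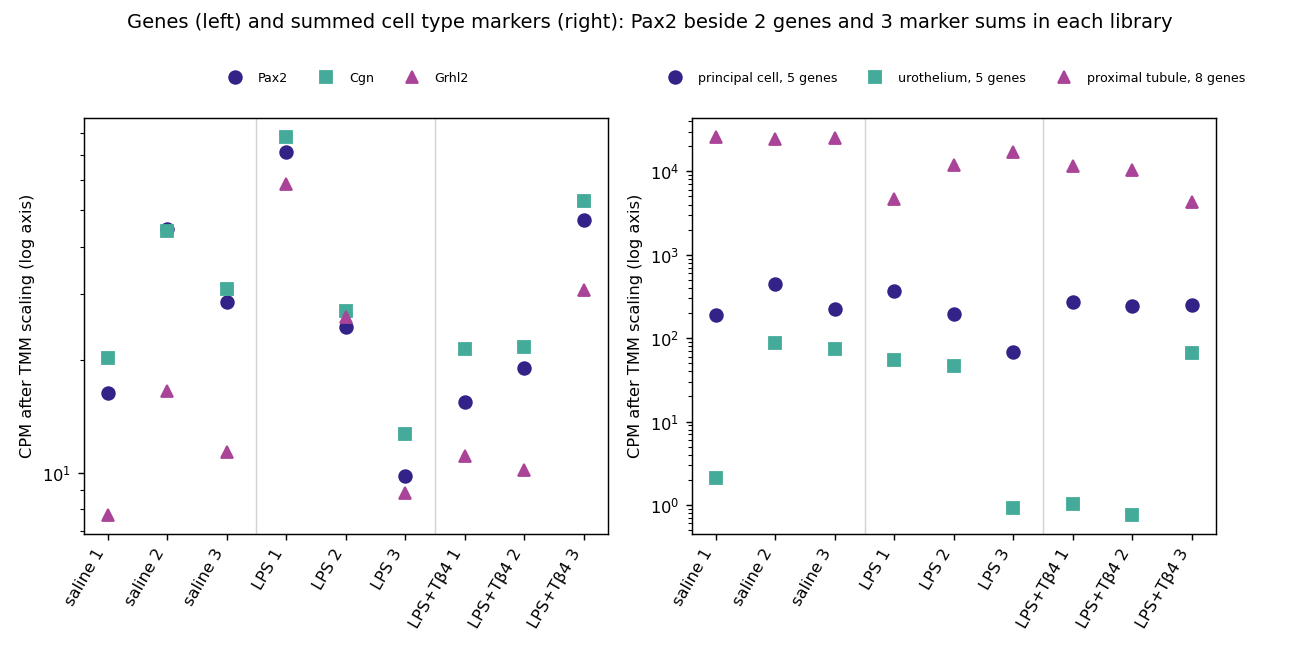
CPM after scaling (y axes, log scale) in each of the 9 libraries (x axes) for Pax2, Cgn and Grhl2 (left) and for the sums of principal cell, urothelium and proximal tubule markers (right). Pax2 and Cgn keep nearly the same order, with LPS replicate 1 at 71.6 and 78.1 CPM and LPS replicate 3 at 9.82 and 12.7, and the urothelium sum falls to 0.758 to 2.13 CPM in 4 libraries.

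Pax2 and Pax8 were the 2 tested genes of the PAX family, whose other listed members were below the filter or not in the table. In a list of 24 kidney developmental regulators, 14 were tested, of which Pax8 rose with LPS and 4 fell, a called share of 35.7% that was below the 43.1% of all genes. Lhx1, a homeobox gene of nephron patterning, fell by 1.88 ± 0.26 (edgeR adjusted p = 0.000797). Hoxa10 fell by 0.72 ± 0.19, and Sall1, a zinc finger factor of nephron progenitors, by 0.88 ± 0.27 (called in 13 of 21 alternatives). The list median was -0.55. None of the 14 was called between LPS+Tβ4 and LPS in edgeR (1 at an unadjusted p under 0.05, 0 in DESeq2). In LPS+Tβ4 2 were lower than in saline (14.3%, against 11.8% of all genes).

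Sox9 (ENSMUSG00000000567, chromosome 11 at 112782224 to 112787760, plus strand) moved the most of the 6. Its level was 0.153, 0.134 and 0.186 FPKM in saline, 6.85, 13.4 and 19.9 in LPS and 12.2, 10.1 and 5.71 in LPS+Tβ4. The saline values rested on 41, 37 and 52 counts and those of the LPS groups on 1592 to 5404. All libraries of both LPS groups stood far above saline, and those groups overlapped each other between 6.85 and 12.2 FPKM. Sox9 rose 77.8-fold with LPS, by 6.28 ± 0.59 (edgeR adjusted p = 0.000162), and 51.4-fold with LPS+Tβ4, by 5.69 ± 0.57 (edgeR adjusted p = 0.000542). Both rises were called in all 21 alternative settings, of which limma on log2(FPKM + 1) gave the smallest values, 3.53 and 3.10, on a scale that compresses low levels. LPS+Tβ4 against LPS stood at -0.60 ± 0.46 (edgeR adjusted p = 0.464), with a 95% interval of -1.65 to 0.45. It was -0.13 without LPS replicate 3 and -0.97 without LPS replicate 1, and passed in neither. Other tissues that express Sox9 were looked at by their markers. The sum of 6 astrocyte markers overlapped between groups (400 to 632 CPM in saline, 364 to 660 in LPS and 476 to 658 in LPS+Tβ4), but it was made up mostly of Aldh1l1 and Aqp4. Gfap, the intermediate filament of astrocytes, stood at 1.01 to 1.72 CPM in saline, 0.820 to 3.57 in LPS and 23.8 to 26.0 in LPS+Tβ4, and the glutamate transporter Slc1a2 at 8.67 to 9.80, 4.08 to 6.16 and 52.4 to 68.2. In the same order of groups, Slc1a3 stood at 2.21 to 8.13, 1.95 to 13.1 and 8.39 to 36.4 CPM. Gjb6 stood at 2.38 to 3.18, 0.0729 to 0.940 and 2.17 to 3.92 CPM. Aldh1l1 stood at 375 to 427, 242 to 356 and 238 to 390 CPM, and Aqp4 at 9.80 to 206, 1.46 to 397 and 14.6 to 298. Of the 6 markers, Gfap and Slc1a2 alone lay above both other groups in every LPS+Tβ4 library. The part of glial RNA in the Sox9 and Sox4 levels of LPS+Tβ4 was not tested. The 4 measured chondrocyte markers lay between 0 and 2.74 CPM in all libraries.

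Sox4 (ENSMUSG00000076431, chromosome 13 at 28948919 to 28953713, minus strand) rose as well. Its level was 2.85, 3.54 and 2.47 FPKM in saline, 9.65, 16.1 and 26.8 in LPS and 10.7, 6.52 and 8.28 in LPS+Tβ4. All saline libraries lay below all others, and only the highest LPS+Tβ4 library reached into the LPS range. The rise with LPS was 5.53-fold, or 2.47 ± 0.42 (edgeR adjusted p = 0.00212), and was called in all 21 alternative settings. The level in LPS+Tβ4 was 8.50 ± 2.09 FPKM against 17.5 ± 8.67 in LPS (SD, n = 3), a difference of -1.14 ± 0.40 (edgeR adjusted p = 0.122, 95% interval -2.05 to -0.22 before adjustment). This difference passed in DESeq2 (-1.16, adjusted p = 0.042) and without LPS replicate 1 (-1.49, adjusted p = 0.016), and was -0.62 without LPS replicate 3 (adjusted p = 0.29). Sox4 was 2.51-fold higher in LPS+Tβ4 than in saline (1.33 ± 0.40, edgeR adjusted p = 0.044). That call was lost on leaving out any saline or LPS+Tβ4 library or LPS replicate 2, at 1.07 to 1.48 with adjusted p of 0.059 to 0.14. Within the LPS group Sox9, Sox4 and Pax8 were all highest in replicate 3, the library with the least urothelium signal and the least Pax2.

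The SOX family as a whole did not move as these 2 genes did. Of 20 listed, 8 were tested, and with LPS Sox9 and Sox4 rose while Sox6 (-1.89 ± 0.44, edgeR adjusted p = 0.00886) and Sox12 (-0.86 ± 0.27, edgeR adjusted p = 0.0313) fell, with a family median of -0.43. The called share was 50%, against 43.1% of all genes. The call of Sox12 held in 9 of 20 alternatives that gave it a value. The vascular factors Sox7, Sox17 and Sox18, at -0.33 ± 0.61, -0.52 ± 0.66 and -1.0 ± 0.53, did not pass, nor did Sox13 at -0.16 ± 0.16. None of the 8 was called between LPS+Tβ4 and LPS in edgeR, 2 had an unadjusted p under 0.05 (Sox4 and Sox6), and DESeq2 called 2. Over all 15015 genes 3768 had such a p there and DESeq2 called 2442.

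Genes of tubular repair and dedifferentiation gave the setting for Sox9 and Sox4, which were not on that list. Of 26 tested, 15 rose with LPS (57.7%, against 20.9% of all genes) and 1 fell, with a median of 2.23. Lcn2, which encodes the secreted injury protein NGAL, rose by 7.41 ± 0.58, and Havcr1, which encodes KIM-1, rose by 7.24 ± 0.60. The urokinase receptor Plaur rose by 3.45 ± 0.33 and osteopontin, Spp1, by 3.72 ± 0.40. Between LPS+Tβ4 and LPS 1 of 26 was called (3.85%, against 6.83% of all genes), with a list median of -0.26. It was the adhesion molecule Vcam1, which was higher with Tβ4 (1.21 ± 0.25, edgeR adjusted p = 0.0328) and held its call in 11 of 20 alternatives. Against saline 15 of 26 were higher in LPS+Tβ4 (57.7%, against 12.3% of all genes) and none lower (median 1.95).

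**Figure D4:**
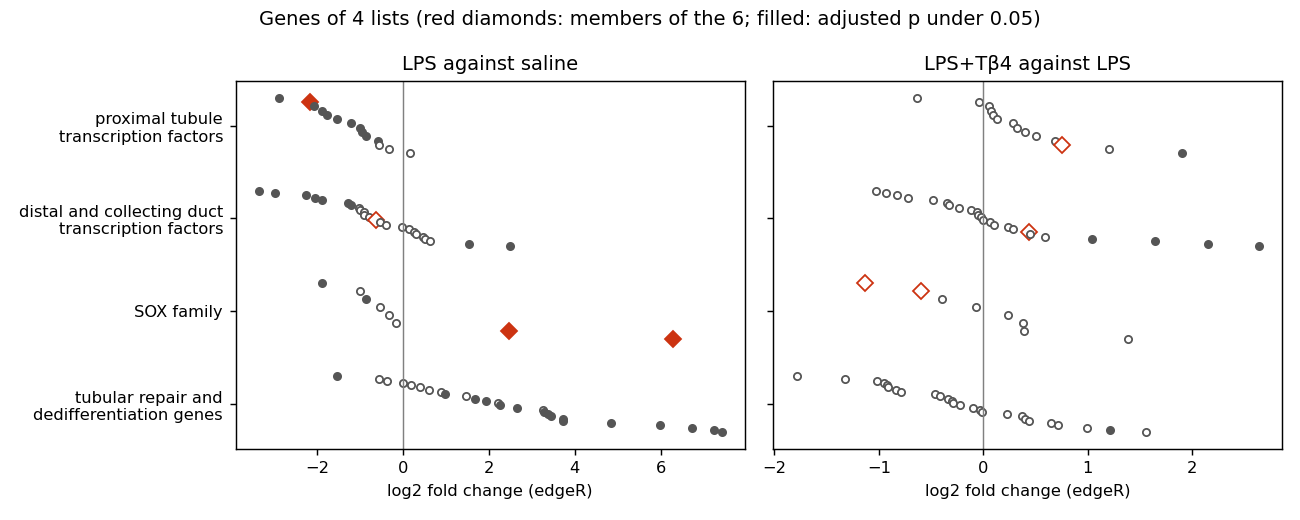
Log2 fold changes from edgeR (x axes) for the tested genes of 4 lists (rows; height within a row only separates the points), for LPS against saline (left) and LPS+Tβ4 against LPS (right). Points are filled where the adjusted p was under 0.05, and red diamonds are genes of the 6 that belong to the list; 11 of 14 proximal tubule factors are filled on the left, all below 0.

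Pathways known to act upstream of Sox9 in epithelia were described by fixed lists. Of 13 YAP and TEAD genes 5 rose with LPS (38.5%, against 20.9% of all genes) and none fell (median 0.66). Those that rose included the coactivator Yap1 (0.66 ± 0.13), its DNA-binding partners Tead3 (0.77 ± 0.13) and Tead4 (1.81 ± 0.47), and the receptor kinase Axl (0.94 ± 0.28, called in 14 of 21 alternatives). Of 13 TGF-beta genes 8 rose (61.5%, against the same 20.9%) and none fell (median 0.57). The receptor Tgfbr1 stood at 1.21 ± 0.16, the ligand Tgfb1 at 1.04 ± 0.18 and the corepressor Tgif1 at 2.79 ± 0.39. Of 15 Notch genes 3 were called (20%), fewer by share than all genes. The DNA-binding factor Rbpj rose (0.50 ± 0.16, called in 10 of 20 alternatives), and the receptor Notch3 (-0.88 ± 0.19) and the glycosyltransferase Lfng (-1.33 ± 0.34) fell. Between LPS+Tβ4 and LPS, edgeR called 1 of 15 Notch genes (6.67%, against 6.83% of all genes) and none of the other 2 lists. It was Notch3, at 0.91 ± 0.19 (edgeR adjusted p = 0.0336), and its call held in 7 of 20 alternatives. DESeq2 called 2 of the 13 YAP and TEAD genes, both lower, and 2442 of all 15015 genes. These counts are near or below the background.

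Tfcp2l1 (ENSMUSG00000026380, chromosome 1 at 118627945 to 118685168, plus strand) was the second most abundant of the 6 in saline. Its level was 28.2, 34.1 and 32.6 FPKM in saline, 32.8, 15.0 and 21.7 in LPS and 25.7, 38.7 and 31.2 in LPS+Tβ4. LPS replicates 2 and 3 lay below all other libraries, and LPS replicate 1 lay within the saline range in FPKM. After TMM scaling, the scale of the test, the LPS libraries (300, 163 and 245 CPM) all lay below the saline libraries (348 to 381 CPM). The difference with LPS was -0.63 ± 0.24 and did not pass (edgeR adjusted p = 0.0621, 95% interval -1.18 to -0.08 before adjustment). It passed in DESeq2 (-0.61, adjusted p = 0.04) and without LPS replicate 1 (-0.79, adjusted p = 0.026). LPS+Tβ4 stood at 0.44 ± 0.24 against LPS (edgeR adjusted p = 0.294) and at -0.19 ± 0.24 against saline (edgeR adjusted p = 0.602, 95% interval -0.74 to 0.35). The intercalated cell markers (5 genes), of a cell type in which this factor acts, summed to 289 to 354 CPM in saline, 48.2 to 164 in LPS and 119 to 208 in LPS+Tβ4, so the LPS groups overlapped in that sum and both lay below saline.

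The paralogues of Tfcp2l1 moved in both directions with LPS. Ubp1 rose by 0.80 ± 0.17 (edgeR adjusted p = 0.00557) and Tfcp2 fell by 0.83 ± 0.14 (edgeR adjusted p = 0.00214). The grainyhead genes Grhl1 and Grhl2, epithelial barrier factors, stood at 1.61 ± 0.80 and 1.39 ± 0.68 and did not pass. Grhl2 was uneven among libraries, at 7.73, 16.5 and 11.4 CPM in saline, 58.6, 26.0 and 8.84 in LPS and 11.1, 10.2 and 30.7 in LPS+Tβ4. Its highest library in each group was the highest in Pax2 too. None of the 5 tested genes of this family was called between LPS+Tβ4 and LPS in edgeR, 2 had an unadjusted p under 0.05 (Tfcp2 and Ubp1), and DESeq2 called 2. Over all 15015 genes those 2 counts were 3768 and 2442.

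Among 24 tested factors of the distal nephron and collecting duct, a list that holds Tfcp2l1, 7 fell and 2 rose with LPS, with a median of -0.71. Esrrg, an orphan nuclear receptor, fell by 2.96 ± 0.32 (edgeR adjusted p = 0.000275), the coactivator Ppargc1a by 2.05 ± 0.26, and the homeobox genes Emx1 and Lhx1 by 3.35 ± 0.43 and 1.88 ± 0.26. The called share was 37.5%, below the 43.1% of all genes, and the share that fell, 29.2%, was near the 22.2% of all genes. In the 5 libraries with urothelium signal alone Tfcp2l1 itself stood at -0.69 with LPS against saline. Between LPS+Tβ4 and LPS 4 of 24 rose (16.7%, against 6.83% of all genes) and none fell (median -0.01), led by Hmx2, a homeobox gene, at 2.64 ± 0.40 (edgeR adjusted p = 0.0155) and Esrrg at 1.64 ± 0.30 (edgeR adjusted p = 0.0235). The call of Esrrg there held in 14 of 21 alternatives. Of 22 genes of collecting duct function 14 fell (63.6%, against 22.2% of all genes) and 1 rose with LPS (median -1.25). Those that fell included the anion exchanger Slc4a1 (-4.61 ± 0.40), the carbonic anhydrase Car12 (-4.15 ± 0.33), the proton pump subunit Atp6v1b1 (-3.95 ± 0.35) and the ammonia transporter Rhbg (-3.02 ± 0.30). Of these 22, 5 (22.7%, against 6.83% of all genes called) were higher with LPS+Tβ4 than with LPS (median 0.49), with Atp6v1b1 at 2.19 ± 0.32 and Car12 at 2.01 ± 0.30.

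The order of the 6 levels differed by group. In saline mean FPKM ran from Hnf4a (136) through Tfcp2l1 (31.6), Pax8 (10.9), Pax2 (4.60) and Sox4 (2.95) to Sox9 (0.158), and among neighbours Pax2 and Sox4 alone overlapped. In LPS it ran from Hnf4a (33.5) through Pax8 (25.6), Tfcp2l1 (23.2), Sox4 (17.5) and Sox9 (13.4) to Pax2 (6.37), and every neighbour overlapped the next. Farther apart in that order, Hnf4a and Pax8 each lay above Sox9 and Pax2 in range, and Tfcp2l1 lay above Pax2. In LPS+Tβ4 Hnf4a (59.1), Tfcp2l1 (31.8) and Pax8 (17.9) were again apart, and Sox9 (9.34), Sox4 (8.50) and Pax2 (4.91) overlapped. These orders compare FPKM ranges and carry no test.

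For each factor, the 3 genes with the most similar profile over the 9 libraries were taken by the Pearson correlation of log2(CPM + 0.5), as a description. The 9 libraries are 3 groups, so a shift shared between groups enters every value. Hnf4a was most like Vdr, the vitamin D receptor (r = 0.994), Iyd and Ccdc68, which fell by 1.80, 1.91 and 1.44 with LPS. Pax2 was most like Cgn, which encodes the tight junction protein cingulin (r = 0.992), Ap1m2, an epithelial sorting adaptor subunit, and Rarg, a retinoic acid receptor, and none of these was called in any comparison. Sox9 was most like Fgg, a fibrinogen chain (r = 0.997), the metalloproteinase Mmp7 and the chemokine Cxcl1, which rose by 6.85, 6.87 and 6.89. Sox4 was most like the phosphatase Ptpn12 (r = 0.995), Xbp1, a factor of the unfolded protein response, and Btg3, which rose by 1.89, 3.06 and 1.83. Pax8 was most like Spin1, a histone reader (r = 0.979), Rae1 and Phf10, which rose by 1.03, 0.47 and 0.49. Tfcp2l1 was most like Tmem129 (r = 0.985), Hnrnpul2 and Man1b1, none of which passed in LPS against saline.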

How the data were processed

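Poly(A) RNA of 9 mouse kidneys was made into strand-specific paired-end libraries, per the labels' protocols. Per the file headers, the deposited table holds a raw count and an FPKM value for each of 34310 genes and 9 libraries, both made by the authors. The submitters' processing notes name cutadapt 1.9, HISAT2 2.2.1, StringTie 2.1.6, DESeq2, edgeR and the build GRCm38. Not given in the sources used here are the counting program, its strand setting and the release of the annotation. No column of the table was left unused (0).

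The 15015 genes whose FPKM averaged 0.5 or more were tested on counts in R 4.3.3 by edgeR 4.0.16, with TMM scaling, 1 quasi-likelihood fit of the 9 libraries with a mean per group, 2-sided tests, and Benjamini-Hochberg adjustment with 0.05 as threshold. The SE is the log2 fold change divided by the square root of F, and 95% intervals come from the same fit. The fit was tested on simulated data. Alternatives used DESeq2 1.42.0, limma 3.58.1 on log2(FPKM + 1) and log2(FPKM + 0.1), other filters and scalings, a replicate block, a urothelium term, and each library left out in turn. After the data were seen, libraries with a urothelium marker sum under or over 10 CPM were also fitted apart. The genes, lists and rules were chosen with earlier results of these data known. Besides the 6 genes and their paralogues, up to 4 genes per list with the smallest adjusted p in LPS against saline and up to 2 in LPS+Tβ4 against LPS were named, and 3 genes of similar profile per gene; exceptions are marked, and some results withheld for evaluation are left out. Deviations of same-numbered libraries correlated at -0.66 to 0.32, which cannot settle whether numbers mark pairs, and numbers were not taken as pairs. Replicates are separate mice, per the series design text. Sequences came from RefSeq promoter windows (GRCm38.p6) and antisense overlaps from the GENCODE annotation of GRCm38. Plots used Python 3.11.15 and matplotlib 3.10.9.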

Additional observations from a re-analysis of the deposited data

How the results depend on the processing

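Among 21 alternative settings (those with the urothelium-poor or urothelium-rich libraries alone not counted), the calls of Hnf4a, Pax8, Sox9 and Sox4 in LPS against saline and of Sox9 in LPS+Tβ4 against saline held in all. In LPS against saline, DESeq2 called 5 of the 6 genes (Tfcp2l1 at -0.61), and leaving out 1 library gave 4 to 5 calls and Tfcp2l1 at -0.79 to -0.37. In LPS+Tβ4 against LPS, where 0 were called, DESeq2 called 1 (Sox4, -1.16), a urothelium term 1 (Pax8, -0.67), leaving out 1 library 0 to 1 (Sox4, -1.49 to -0.62), and the 4 urothelium-poor libraries 3 (Pax8 -0.80, Sox9 -0.97, Sox4 -1.77). The LPS arm of those 4 is replicate 3 alone, the LPS library highest in these 3 genes, and a lone library is assumed to vary like the others, so these 3 calls support nothing. In LPS+Tβ4 against saline, where 3 were called, the count was 2 with no expression filter (Sox4 1.38), with filterByExpr (Sox4 1.33), with the urothelium term (Sox4 1.08) and in the 5 urothelium-rich libraries (Sox4 1.18), 4 with limma on log2(FPKM + 1) and on log2(FPKM + 0.1) (Pax8 0.67 and 0.71), and 1 to 4 on leaving out 1 library (Hnf4a -1.61 to -1.19, Sox4 1.07 to 1.48, Pax8 0.38 to 0.71). With the replicate block it was 1, with Hnf4a at -1.39 (adjusted p = 0.053) and Sox4 at 1.33 (adjusted p = 0.099). The replicate block changed no other call of the 6 genes. It gave 5 called genes in LPS+Tβ4 against LPS. Same-numbered libraries had correlations of deviations of -0.66 to 0.32. LPS replicate 3 and LPS+Tβ4 replicate 1, both poor in urothelium signal, reached 0.51. These correlations follow urothelium signal too, so they cannot settle whether the numbers pair the mice.

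Pax2, which was never called, changed sign often. On leaving out 1 library it ranged from -0.76 to 0.69 in LPS against saline, from -1.07 to 0.68 in LPS+Tβ4 against LPS and from -0.76 to 0.28 in LPS+Tβ4 against saline. It moved in LPS against saline to -0.66 in the urothelium-poor libraries, in LPS+Tβ4 against LPS to 0.26 with the urothelium term and 0.78 in the urothelium-poor libraries, and in LPS+Tβ4 against saline to 0.02 and 0.01 with limma at a pseudocount of 1 and 0.1, 0.52 with the urothelium term, and 0.11 and 0.37 in the urothelium-poor and urothelium-rich libraries.

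Over all genes, LPS+Tβ4 against LPS gave 1025 calls, and 2442 with DESeq2, 647 with no filter, 638 at a mean FPKM of at least 5, 3 from the 6 libraries alone and 68 to 2672 on leaving out 1 library. LPS+Tβ4 against saline gave 2119 to 4544 on leaving out 1 library. A mean FPKM of at least 5, which tests fewer genes, gave 3754 calls in LPS against saline (6473) and 2268 in LPS+Tβ4 against saline (3617). Fits of the 4 and 5 libraries rest on 1 and 2 residual degrees of freedom, and the 4 hold 1 saline, 1 LPS and 2 LPS+Tβ4 libraries. The limma alternatives moved the median of all genes to 0.11 and 0.14 in LPS against saline and to 0.14 and 0.19 in LPS+Tβ4 against saline. The causes of these differences were not tested. With 3 mice a group, the intervals of Pax2 and of the LPS+Tβ4 against LPS comparison are wide, and counts of 37 to 52 limit the precision of Sox9 in saline.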
